A study of Mus musculus with 35 samples.

Results

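The nuclear transport and pore genes measured here were 34 of the 8251 mouse genes named on the array, those for Ran and its regulators, the importins and exportins that Ran drives, and the nucleoporins of the pore. Members were chosen by name, from probe sets to which the array's gene table gave a single symbol. It was Ran, Rangap1, Cse1l, Nutf2 or Nxt1, or began with Xpo, Kpna, Kpnb, Tnpo or Ranbp, or with Ipo or Nup and a digit. In all, 47 of the 12422 probe sets entered. Each gene was then represented by its brightest probe set, that is, the one with the highest mean log2 value over the 35 arrays. Nutf2, which encodes the carrier that returns Ran to the nucleus, had no such probe set and was not analysed here. By role there were 4 genes of the Ran cycle, 5 importin alpha adaptors, 9 import receptors, 5 exportins, 8 nucleoporins, the mRNA export cofactor Nxt1, and the pair Ranbp9 and Ranbp10, which are named for Ran binding but are known as scaffold proteins of a ubiquitin ligase.

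Traffic through the nuclear pore is given its direction by Ran, a small GTPase that carries GTP in the nucleus and GDP in the cytoplasm. Importins take up cargo in the cytoplasm, where Ran-GTP is scarce, and drop it in the nucleus when Ran-GTP binds them. Exportins do the reverse: they hold cargo only together with Ran-GTP and let go once Rangap1, with the help of Ranbp1, makes Ran hydrolyse its GTP in the cytoplasm. In blood-forming cells this machinery brings transcription factors and signalling proteins in and takes mRNA, tRNA and ribosomal subunits out, and growing cells are known to need more of it.

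The study amplified cDNA from very few mouse bone marrow cells and hybridised it to Affymetrix U74Av2 arrays, 35 in all. Side population (SP) cells are stem cells recognised by their efflux of Hoechst dye, and they were gated here on Sca-1 and against Gr-1, either from the lower part of the SP tail (LSP) or from its upper part (USP), while CD8 T lymphocytes from marrow served as the other cell type. Each of these 3 populations was measured as 3 samples, every sample being pooled amplifications of 10 sorted cells and run on 2 arrays. A further 12 arrays each held 1 SP cell (SC) and 5 held single-cell equivalents (SCE), which are portions of a single lysate of 40 SP cells, so that differences among SCE come from the procedure and not from the cells. All groups came from C57Bl/6 mice, CD45.1 and 7 to 9 weeks old per the study's methods and labelled male except for USP, whose labels give no sex, and no treatment is given for any. The cDNA covered only the 3' ends of transcripts, the gentle lysis left nuclei whole, and a sample from a pool cannot tell fewer cells with a transcript from less transcript per cell.

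The populations carried the markers of their labels. The 6 stem and progenitor markers on the array had a mean log2 level of 10.1 to 10.7 in the SP samples and did not exceed the floor (7) in any CD8 sample, and the 6 T-cell markers had mean levels of 11.5 to 11.7 in CD8 and 7.0 to 7.27 in SP. The 4 B-cell markers had mean levels of 7.0 to 9.86 in CD8 and 7.0 to 8.18 in SP, and the 8 granulocyte and monocyte markers 7.0 to 7.38 in CD8 and 7.63 to 9.22 in SP, with Elane, Mpo and Itgam at the floor throughout and S100a8 higher in SP by 3.77 (adjusted p = 0.00572, limma). Of the 4 erythroid markers, with mean levels of 7.0 to 8.30 in CD8 and 7.06 to 8.07 in SP, the globin gene Hba-a1 ran from 7.0 to 8.75 in LSP and from 10.74 to 11.27 in USP, which did not overlap (difference -3.08, adjusted p = 0.716, limma), and its mean was 4.51 lower in single cells than in SCE (adjusted p = 0.0189, limma). Megakaryocyte markers had mean levels of 7.0 to 7.32 in SP and 7.0 to 7.02 in CD8. The part of such other cells in the values below was not tested. Of the 12 SP arrays from ten-cell samples, 9 held negative values and 3 held positive values alone. Those 3 were both arrays of USP sample Z and array 2 of LSP sample B. All 6 CD8 arrays held positive values alone, so the kind of value goes partly with the population.

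The upstream sequences of 3 members are shown because the results turn on them. Ran was the member detected in every single cell, Ranbp1 was detected in some cells and not in others, and Tnpo1 was the member that differed between SP and CD8. Each is the 250 bases before a RefSeq transcription start in GRCm38.p6, written 5' to 3' along the gene, at chr5:129019906-129020155 on the plus strand for Ran, chr16:18248695-18248944 on the minus strand for Ranbp1 and chr13:98926385-98926634 on the minus strand for Tnpo1. Capitals mark the words searched on both strands, which were TTTCCCGC, TTTCGCGC, TTTGCCGC and TTTGGCGC for E2F, CACGTG for the E-box, GCGCATGC for the core of NRF1, and CCAAT.
Ran: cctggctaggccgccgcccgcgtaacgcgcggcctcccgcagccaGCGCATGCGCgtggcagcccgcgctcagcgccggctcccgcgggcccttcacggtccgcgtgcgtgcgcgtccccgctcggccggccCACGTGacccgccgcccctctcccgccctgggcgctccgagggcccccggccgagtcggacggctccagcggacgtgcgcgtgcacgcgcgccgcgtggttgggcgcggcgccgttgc
Ranbp1: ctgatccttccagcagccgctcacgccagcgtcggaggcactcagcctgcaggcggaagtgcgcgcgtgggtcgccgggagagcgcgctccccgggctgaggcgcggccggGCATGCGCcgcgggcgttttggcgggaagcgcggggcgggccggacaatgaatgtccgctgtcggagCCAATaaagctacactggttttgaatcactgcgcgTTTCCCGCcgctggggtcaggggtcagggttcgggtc
Tnpo1: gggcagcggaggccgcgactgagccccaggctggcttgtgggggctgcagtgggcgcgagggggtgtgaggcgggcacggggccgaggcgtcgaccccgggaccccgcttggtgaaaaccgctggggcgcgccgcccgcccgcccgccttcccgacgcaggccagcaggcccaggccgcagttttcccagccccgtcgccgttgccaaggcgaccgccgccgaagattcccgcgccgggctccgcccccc

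In the Ran window the first capitals are the NRF1 core read on both strands, which overlap, and the second are an E-box. The Ranbp1 window held an NRF1 core, a CCAAT box and an E2F word, and the Tnpo1 window held none of the words. The promoter table had a window for 26 of the 34 members. Over these, 5 held an NRF1 core (Ran, Ranbp1, Nup50, Nup62 and Nup107), against 2.32% of the first-listed windows of 27025 genes, and 7 held an E-box (Ran, Tnpo2, Ipo7, Xpot, Nup54, Nup93 and Nup188), against 6.05%. A CCAAT box stood in 14 of the 26, against 34.5% of all windows, and an E2F word in Ranbp1 and Nxt1, against 1.91%. The GC content of the windows had a median of 63.8% over the members and 52.0% over all genes, and a match is a description of letters and not of binding.

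The ten-cell samples showed a core of transport genes in both cell types and several members that were not measured above the floor anywhere. Levels are log2 intensities, floored at 7, averaged over the 2 arrays of a sample. Of the 34 members, 30 exceeded the floor somewhere among the 18 ten-cell arrays and could be tested, and 12 exceeded it in all 9 samples: Ran, Ranbp1, Kpnb1, Ipo4, Ipo5, Tnpo3, Xpo1, Xpo6, Xpo7, Nxt1, Nup54 and Ranbp9. The remaining 4, Kpna4, Nup88, Nup107 and Ranbp10, were at the floor on every ten-cell array and were detected in no single cell. Because different probe sets bind their targets unequally, levels are compared between samples for 1 gene and not between genes.

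**Figure D1:**
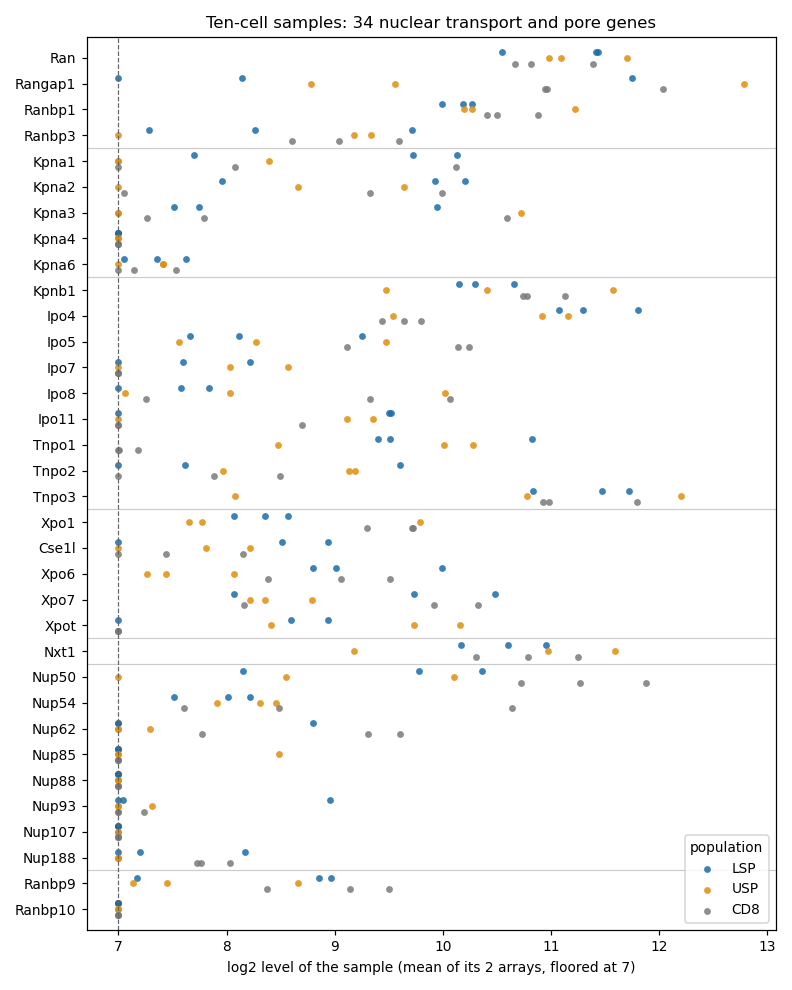
Log2 level (x axis) of each of the 34 genes (y axis, grouped by role and parted by grey lines) in the 9 ten-cell samples; each point is 1 sample, the mean of its 2 arrays, coloured by population, and the dashed line is the floor of 7. Ran and Ranbp1 lie between 10.00 and 11.70 in all 3 populations, Tnpo1 is the gene whose 6 SP samples all lie above the 3 CD8 samples, and Nup50 is the gene whose 3 CD8 samples all lie above the SP samples.

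Ran, the GTPase itself, stood at 10.54, 11.41 and 11.43 in LSP, at 10.98, 11.10 and 11.70 in USP and at 10.81, 10.66 and 11.39 in CD8. These ranges overlapped throughout, and the SP mean exceeded the CD8 mean by 0.24 (SE 0.29, adjusted p = 0.736, limma). Ranbp1, its cytoplasmic partner, was as even, at 10.00, 10.18 and 10.27 in LSP, 10.27, 10.20 and 11.22 in USP and 10.50, 10.88 and 10.41 in CD8. The difference of SP from CD8 was -0.24 (SE 0.25, adjusted p = 0.695, limma).

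Rangap1, the protein that makes Ran hydrolyse GTP, was the opposite case. It stood at 11.75, 7.0 and 8.14 in LSP and at 9.55, 8.78 and 12.79 in USP, against 10.96, 12.04 and 10.94 in CD8. The 3 CD8 samples lay close together, while the SP samples ran from the floor to above any CD8 sample, with an SD of 2.20 over the 6 of them and 0.625 over the CD8 samples. The difference of -1.65 between SP and CD8 was within that spread (SE 1.26, adjusted p = 0.567, limma). Ranbp3, a nuclear cofactor of export by Xpo1, ran from 7.0 to 9.71 in SP and from 8.60 to 9.59 in CD8.

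The comparison of SP with CD8 asks which genes part stem cells from mature lymphocytes. Across 6823 probe sets, 193 were higher in SP and 205 were lower at an adjusted p under 0.05 in limma, which is 2.83% and 3.0%. Of the 30 members tested, 1 was higher in SP, Tnpo1, and 0 were lower. At an unadjusted p under 0.05 the members numbered 3 higher (Tnpo1, Ipo4 and Xpot; 9.13% of all probe sets) and 5 lower (Nup50, Nup62, Ipo5, Xpo1 and Nup188; 9.32%), and the t-test named in the methods, after adjustment, gave 1 higher and 0 lower (2.13% and 2.42% of all probe sets). The median difference was -0.24 over the 30 members and 0.04 over all probe sets tested, with 12 members above 0 and 18 below.

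**Figure D2:**
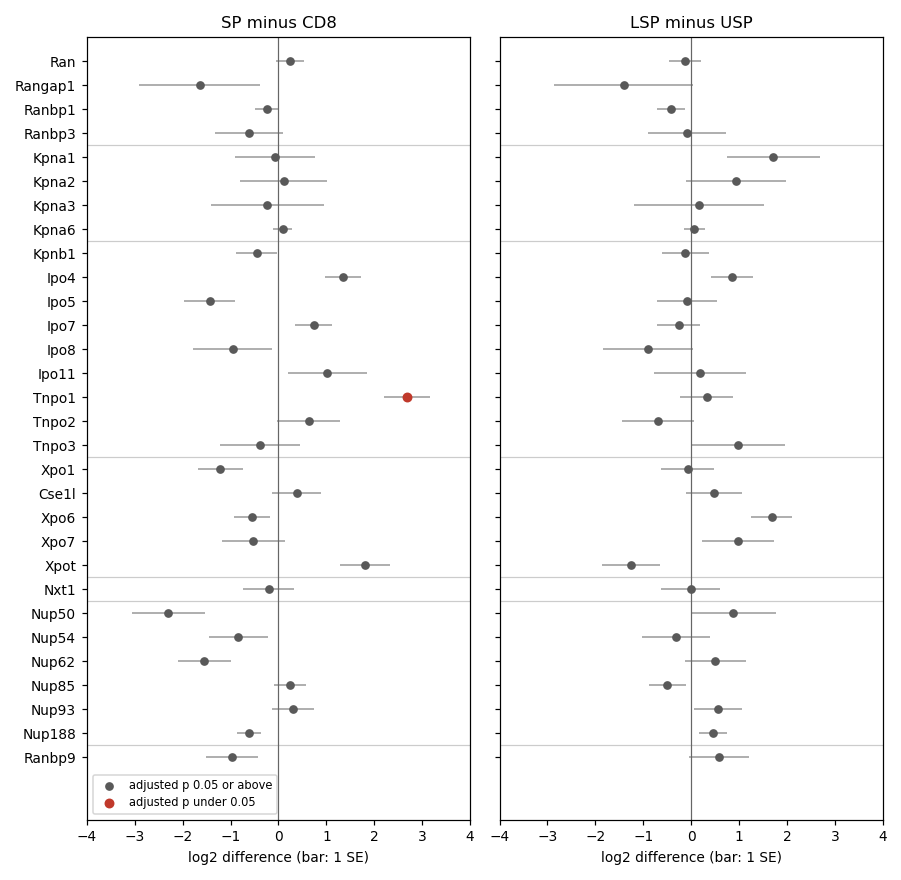
Log2 difference (x axis) of SP from CD8, left, and of LSP from USP, right, for the 30 members tested (y axis, grouped by role); points are limma estimates from 9 samples and bars are 1 standard error. Tnpo1 at 2.69 in the left panel is the only point with an adjusted p under 0.05 in either panel.

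Tnpo1 encodes transportin, the import receptor for many RNA-binding proteins. It was measured at 9.51, 9.40 and 10.83 in LSP and at 10.01, 10.27 and 8.48 in USP, against 7.0, 7.18 and 7.0 in CD8. Every SP sample was above every CD8 sample, where the gene was at or just over the floor. The difference was 2.69 (SE 0.48, adjusted p = 0.0235, limma), or 6.45-fold on this floored scale, and SP and CD8 levels failed to overlap for 1 further member and for 11.3% of all probe sets. Without 1 sample the adjusted p ranged from 0.00800 to 0.0939, and it was 0.0556 without USP sample N and 0.0827 to 0.0939 without any one of the CD8 samples. It was 0.0880 with a floor of log2 8 and 0.0724 with no filter on low levels.

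The result belonged to 1 probe set of the gene. The other probe set annotated to Tnpo1 ran the opposite way: it stood at 7.11, 8.62 and 7.0 in LSP and at 7.0, 7.25 and 7.0 in USP, against 11.81, 8.10 and 11.86 in CD8. There the difference of SP from CD8 was -3.26 (adjusted p = 0.0951, limma), and its mean over all arrays, 8.18, was close to the 8.30 of the probe set chosen. The direction for the gene therefore depends on which probe set stands for it. Among arrays with positive values alone the chosen probe set differed by 1.62 (adjusted p = 0.00832, limma), but that fit holds 1 LSP and 1 USP sample, and its spread is that of the 3 CD8 samples, which lie at or just over the floor.

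**Figure D3:**
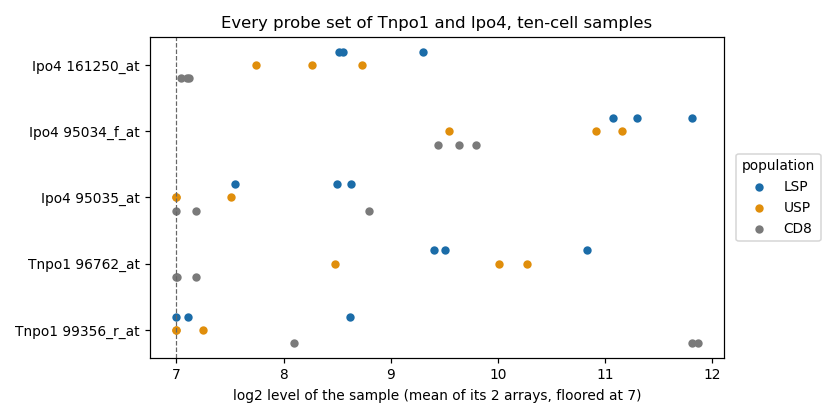
Log2 level (x axis) in the 9 ten-cell samples of each probe set annotated to Tnpo1 and to Ipo4 (y axis, gene and probe set name); each point is 1 sample, coloured by population, and the dashed line is the floor of 7. The Tnpo1 probe sets differ between SP and CD8 in opposite directions, without overlap for 96762_at and with overlap for 99356_r_at. Ipo4 95034_f_at and 161250_at have their CD8 samples at the low end.

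Ipo4, an importin known for carrying histones and ribosomal proteins, was the other import receptor with SP values on the high side. It stood at 11.30, 11.07 and 11.81 in LSP and at 9.54, 11.15 and 10.92 in USP, against 9.79, 9.44 and 9.64 in CD8. USP sample N was the one SP value inside the CD8 range, and the difference of 1.34 missed the threshold (SE 0.37, adjusted p = 0.0996, limma). Without that sample it was 1.59 (adjusted p = 0.00968, limma), and no other sample left out brought it past the threshold. The second probe set of Ipo4 ran from 7.75 to 9.30 in SP and from 7.04 to 7.12 in CD8 and passed (1.43, adjusted p = 0.0254, limma), and the third differed by 0.04. The suffix of the brightest one marks probes shared by a family of sequences, and the chosen probe sets of Ipo5 and Xpo7 carry it too. The probe set of Ranbp1, 98573_r_at, and the second one of Tnpo1, 99356_r_at, carry another suffix, whose bearing on their values was not tested.

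The other import receptors did not part the cell types. Kpnb1, importin beta, which carries cargo bound to the importin alpha adaptors, ran from 9.47 to 11.57 in SP and from 10.74 to 11.13 in CD8. Ipo5, an importin of ribosomal proteins, was at 8.12, 9.26 and 7.67 in LSP, at 7.56, 9.48 and 8.27 in USP and at 10.14, 9.12 and 10.24 in CD8. The CD8 values of Ipo5 lay at the high end but overlapped those of SP, with a difference of -1.44 (SE 0.54, adjusted p = 0.209, limma). The other probe set of Ipo5 was at the floor in all CD8 samples and reached 8.17 in SP (0.20, adjusted p = 0.736, limma). Tnpo3, which carries splicing factors, ran from 8.08 to 12.20 in SP and from 10.92 to 11.79 in CD8. Ipo7 was at the floor in all CD8 samples and between 7.0 and 8.57 in SP (adjusted p = 0.401, limma), and Ipo8, Ipo11 and Tnpo2 each overlapped between the cell types.

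Among the exportins, none passed the test in either direction. Xpot, the exporter of tRNA, was at 8.59, 8.94 and 7.0 in LSP and at 8.41, 9.73 and 10.16 in USP, and at the floor in all 3 CD8 samples. LSP sample M was thus at the floor with the CD8 samples, and the difference of 1.81, in which both are held at the floor, had an adjusted p of 0.115 (SE 0.53, limma). Without LSP sample M it was 2.10 (adjusted p = 0.0441, limma), and without any other sample it was 1.62 to 2.06 and did not pass (adjusted p = 0.0713 to 0.300, limma). Xpo1, the receptor for leucine-rich export signals, was at 8.57, 8.07 and 8.36 in LSP, at 7.66, 7.77 and 9.79 in USP and at 9.30, 9.71 and 9.73 in CD8. Of the SP samples of Xpo1, USP sample Z alone reached the CD8 range. The difference was -1.21 (SE 0.48, adjusted p = 0.234, limma). Without USP sample Z it was -1.56 (adjusted p = 0.00451, limma), and no other omission brought it past. USP sample Z is also the one SP sample with positive values alone on both arrays, as in CD8. The part of the kind of value in this was not tested. Cse1l, which returns importin alpha to the cytoplasm, was between 7.0 and 8.94 in SP and 7.0 and 8.16 in CD8.

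The importin alpha adaptors, which recognise nuclear localisation signals, differed less between SP and CD8 than their samples spread within a population. Kpna2, the adaptor that is abundant in dividing cells, was at 7.96, 9.93 and 10.21 in LSP, 9.64, 8.66 and 7.0 in USP and 7.05, 9.33 and 9.99 in CD8. Kpna3 had 1 high sample in each population (9.94, 10.72 and 10.59) and was below 8 in all others. Kpna1 was likewise spread from the floor to 10.13 in SP and to 10.12 in CD8, and Kpna6 stayed at 7.63 or less everywhere.

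The nucleoporins had a median difference of -0.72 over the 6 tested, with 4 of them below 0, and none passed the test. Nup50, a mobile nucleoporin of the nuclear basket that helps importin alpha release its cargo, was at 8.15, 10.36 and 9.78 in LSP, 8.55, 10.10 and 7.0 in USP and 11.88, 10.73 and 11.27 in CD8. All CD8 samples were above all SP samples, and the difference was -2.30 (SE 0.77, adjusted p = 0.161, limma). Nup62, which lines the central channel, was above the floor in LSP sample A, at 8.80, and in USP sample Z, at 7.29, among the SP samples, against 7.78, 9.61 and 9.30 in CD8. Its difference was -1.55 (SE 0.55, adjusted p = 0.185, limma), and it passed in the fits that took the 18 arrays singly (adjusted p = 0.0320 and 0.0392, limma with duplicateCorrelation). Nup188, of the inner ring, was at the floor in 4 SP samples and between 7.73 and 8.03 in CD8 (adjusted p = 0.261, limma), with a difference of -0.61, or -0.79 without LSP sample A (adjusted p = 0.00973, limma), again the one omission with a call. Nup54 ran from 7.51 to 8.46 in SP and from 7.61 to 10.63 in CD8, while Nup85 was above the floor in USP sample O alone and Nup93 exceeded 7.31 in LSP sample A alone.

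Nxt1, a cofactor of the mRNA exporter Nxf1, was at 10.61, 10.96 and 10.17 in LSP, 10.97, 9.18 and 11.59 in USP and 11.25, 10.79 and 10.30 in CD8, without any separation. Ranbp9 ran from 7.13 to 8.96 in SP and from 8.37 to 9.50 in CD8 (-0.97, SE 0.54, adjusted p = 0.435, limma).

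Genes of the same pathway outside the family names gave few calls too. Of 12 other pore and envelope genes tested, among them Rae1, Pom121, the lamin genes and Sun2, 0 were higher and 0 lower in SP, with a median difference of 0.40. Of 8 other genes of the Ran cycle and RNA export, 1 was higher in SP, Alyref, which recruits Nxf1 to mRNA: its SP samples ran from 7.42 to 9.01 and its CD8 samples were all at the floor, so that the SP mean was at least 2.70-fold higher (adjusted p = 0.0130, limma). Cell cycle genes gave 2 higher and 0 lower of 17, with a median of 0.56. These were Pcna, the sliding clamp of DNA replication, at least 5.99-fold, and Top2a, which untangles chromosomes, at least 6.66-fold. No list gene passed the test between LSP and USP.

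The comparison of LSP with USP asks whether position along the SP tail goes with expression. At an adjusted p under 0.05 limma called 7 of 6823 probe sets (0.103%) and 0 of the 30 members, and at an unadjusted p under 0.05 it called 409 probe sets (5.99%) and 1 member, Xpo6. The t-test of the methods called 0 members after adjustment, as it did of all probe sets (0.0%), and 1 before it (2.71% of all). The median difference of LSP from USP was 0.11 over the members, 16 of them above 0 and 14 below, and 0.00 over all probe sets.

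Xpo6, the exporter of profilin and actin, was at 8.80, 9.02 and 10.00 in LSP and at 7.26, 7.44 and 8.07 in USP. It was the one member whose LSP and USP samples did not overlap, which was so for 5.98% of all probe sets, and the difference of 1.68 had an adjusted p of 0.403 (SE 0.42, limma). Kpna1 differed by 1.72 (SE 0.97, adjusted p = 0.876, limma), from 10.13, 9.72 and 7.70 in LSP and 7.0, 7.0 and 8.39 in USP. Rangap1 differed by -1.41 and Xpot by -1.26, both with overlapping samples. With 1 sample left out Rangap1 ran from -0.20 (USP sample Z) to -2.80 (LSP sample A) and Xpot from -0.67 (LSP sample M) to -1.77 (USP sample N). Tnpo3 differed by 0.99, and this rested on USP sample N at 8.08, without which the difference was -0.15.

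The duplicate arrays show how much of this differs between 2 arrays of the same sample. Between the 2 arrays of a sample the members' levels differed by a median of 0.05 to 0.29 log2 units, and by up to 2.12 for Tnpo3 in USP sample N and 2.03 for Nup54 in LSP sample M. In the 3 CD8 samples the largest differences were 0.41 to 0.64, and in USP sample Z 0.51, against 0.93 or more in the other SP samples. The CD8 samples and USP sample Z are those with positive values alone on both arrays. In LSP sample B, array 1 holds negative values and array 2 does not. What the kind of value adds to these differences was not tested.

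The single SP cells and the SCE ask how far 1 cell differs from the next. An array was taken to detect a gene at a log2 value of 9 or above, with no floor applied. Each single cell detected between 3 and 12 of the 34 members (median 7), and each SCE between 4 and 10 (median 9). Cells A and K had 12 members each and also detected the most probe sets, 11.3% and 11.99%, against 9.61% to 10.7% in the other cells. Cell L detected only Ran, Kpnb1 and Xpo6. Because each gene is represented by its brightest probe set, its chance of being detected is raised by the way it was chosen: of the 13 probe sets not chosen, 12 were detected in no single cell.

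**Figure D4:**
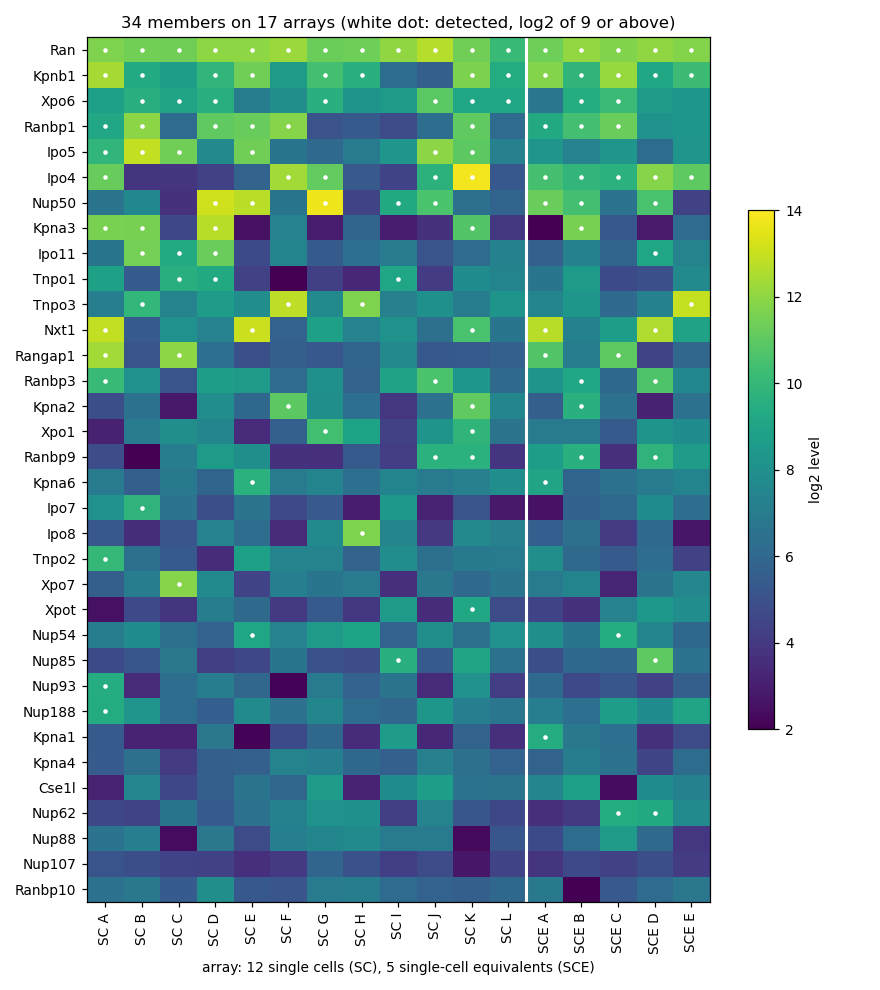
Log2 level (colour) of the 34 members (rows, ordered by the number of single cells that detected them) on the 12 single-cell and 5 SCE arrays (columns, parted by the white line); white dots mark detection at 9 or above. Ran has a dot on all 17 arrays, Ipo4 on all 5 SCE but 5 of 12 cells, and Ipo5 on 6 of 12 cells and none of the SCE.

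Ran was the one member detected in all 12 cells, as were 1.48% of all probe sets. It ran from 10.11 in cell L, through a median of 11.58, to 12.65 in cell J, and was at 11.35, 12.05, 11.73, 12.02 and 11.78 in the SCE. The SD was 0.63 over the cells and 0.28 over the SCE. No cell lacked it, and the cells spread about the same level as the SCE.

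Ranbp1 was detected in some cells and not in others. It had 1 probe set with a single symbol, so no other could be set beside it. It was detected in 6 cells, at 9.22 in cell A and between 11.05 and 11.92 in cells B, D, E, F and K, and lay between 4.75 and 6.33 in the other 6. The SCE held 9.31, 10.41, 11.28, 8.14 and 8.29. No single cell had a value between 6.33 and 9.22, and 2 of the SCE lay in that gap. The study's own Q-PCR found c-kit more often than its arrays did, so lack of detection need not mean absence of the transcript. Rangap1 was at 12.35 in cell A and 11.98 in cell C and at 7.66 or less in the other 10 cells. Its SCE were split in the same manner, at 10.72, 7.05, 11.004, 4.41 and 5.94.

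Kpnb1 was detected in 8 cells and in all 5 SCE. The cells ran from 5.64 in cell J, through a median of 9.51, to 12.37 in cell A, and the SCE stood at 11.77, 9.83, 12.17, 9.15 and 10.22. Its partner Kpna2 was at 10.995 in cell F and 11.09 in cell K and at 7.96 or less in the other 10, with SCE at 5.63, 9.62, 6.53, 3.10 and 6.48. The SCE of Kpna2 were spread about as widely as the cells, with SDs of 2.33 against 2.48. Cells F and K were the highest cells for Kpna2. Both detected Ranbp1 too, but so did 6 of the 12 cells in all, and cell K detected the most probe sets of any cell (11.99%). Kpna3 was detected in cells A, B, D and K, between 10.77 and 12.71, and did not exceed 7.32 in the other cells. Its SCE were at 1.89, 11.52, 5.27, 2.89 and 6.19.

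The chosen probe sets of Ipo4 and Ipo5 had their SCE at opposite ends of the range of the cells. Both carry the suffix for probes shared by a family of sequences. The other probe sets of these genes were detected in no single cell and no SCE. The single-cell results for both genes therefore rest on the chosen ones. Ipo4 was detected in cells A, F, G, J and K, at 9.71 to 13.80, and lay between 3.79 and 5.81 in the other 7 cells, while its SCE were all detected at 10.47, 9.90, 9.65, 11.82 and 11.03. Ipo5 was detected in cells A, B, C, E, J and K, at 9.90 to 12.90, and lay between 6.12 and 8.25 in the rest, while its SCE stood at 8.24, 7.33, 8.28, 6.23 and 8.26. The mean of the cells was below that of the SCE for Ipo4 (-3.00, SE 1.58, adjusted p = 0.864, limma) and above it for Ipo5 (1.61, SE 1.07, adjusted p = 0.864, limma). Neither passed.

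**Figure D5:**
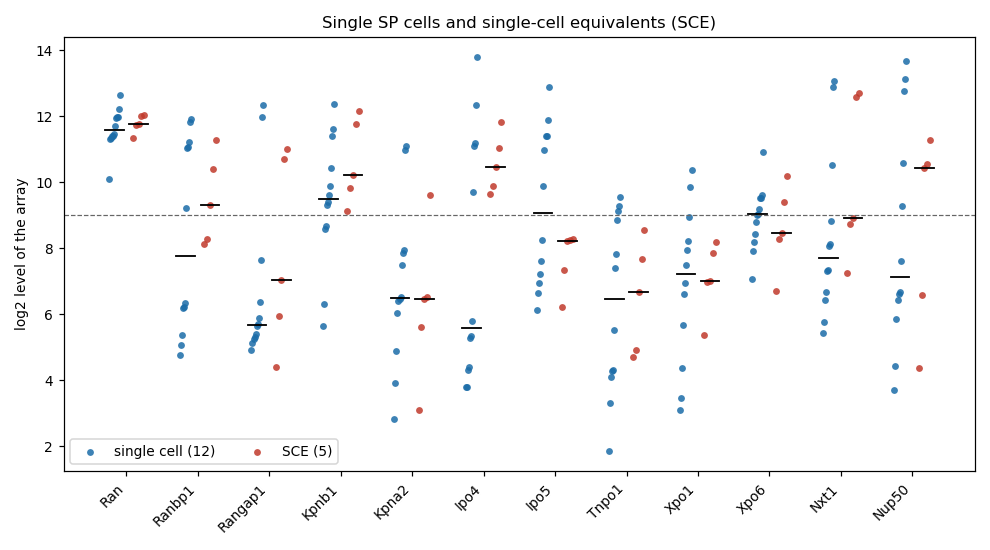
Log2 level (y axis) of 12 members (x axis) on the single-cell arrays and the SCE arrays; each point is 1 array, black bars are medians and the dashed line is the detection level of 9. Ran forms 1 tight cluster, and Ranbp1, Rangap1, Kpna2 and Ipo4 fall into separate high and low cells. The SCE are spread about as widely as the cells for Rangap1 (SD 2.93 against 2.61) and Kpna2 (2.33 against 2.48). The SCE of Ipo4 all lie among its high cells.

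Xpo6 was detected in 7 cells and had a narrow range, from 7.06 to 10.92 with a median of 9.03, so that many cells lay near the detection level. Its SCE were at 6.71, 9.42, 10.18, 8.48 and 8.29. Xpo1 was detected in cells G and K, at 10.36 and 9.86, and ran down to 3.09 in cell A, with SCE at 6.98, 7.01, 5.39, 8.21 and 7.85. The chosen probe set of Tnpo1 was detected in cells C, D and I, at 9.12 to 9.55, and in none of the SCE, whereas the other one was detected in 1 cell and 2 SCE.

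Nup50 was detected in 5 cells, more than any other nucleoporin. It stood between 9.28 and 13.68 in cells D, E, G, I and J and between 3.71 and 7.61 in the other 7, with SCE at 11.27, 10.43, 6.57, 10.56 and 4.38. Nxt1 was at 12.88, 13.06 and 10.54 in cells A, E and K and under 9 in all others, and its SCE were at 12.72, 7.26, 8.73, 12.58 and 8.91. In both genes the SCE were spread about as widely as the cells, with SDs of 3.01 against 3.43 for Nup50 and 2.47 against 2.55 for Nxt1.

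Of the 47 member probe sets, 19 were detected in no single cell, against 66.1% of all probe sets. By the chosen probe sets, the brightest of each gene, 7 of the 34 members were detected in none: Kpna1, Kpna4, Cse1l, Nup62, Nup88, Nup107 and Ranbp10. Kpna1 and Nup62 were detected in SCE, in 1 and 2 of them, and the other 5 in none. A further 10 members were detected in a single cell each, 5 in 2 cells and 4 in 3 cells. Cse1l, which was above the floor in 7 of the 9 ten-cell samples, came closest of the 7 to detection, at 8.73 in cell J.

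Over the 29 members tested, 0 differed in mean between single cells and SCE in limma, 0 at an unadjusted p under 0.05 as well, and 0 by the t-test, before or after adjustment (6.29% and 0.0644% of all probe sets); over all 4659 probe sets limma called 2 (0.0429%), and 265 without adjustment (5.69%). The differences farthest from 0 were those of Ipo4, Ranbp9 (-2.24), Nxt1 (-1.67), Ipo5 and Kpna1 (-1.54). The median was -0.165 over the members and -0.0905 over all probe sets.

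The spread between cells was compared with the spread among SCE by a one-sided permutation test, called exact because every labelling was counted. The test took the difference of mean absolute deviations from the group medians, over all 6188 ways to label 5 of the 17 arrays as SCE. Levels were first centred on the median of their own group, which makes the p-values approximate. Probe sets entered only if a single cell detected them, whatever the SCE held, which tilts the test toward wider spread among cells. Kpna1 and Nup62, detected in SCE but in no cell, were thus left out. Their SDs were 1.89 and 1.45 over the cells and 2.17 and 2.81 over the SCE. The test called 22 of 4215 probe sets (0.522%) and 0 of the 27 members detected in a cell. Without adjustment it called 437 probe sets (10.4%) and 3 members, Ipo5 (exact permutation p = 0.00259, adjusted p = 0.163), Ranbp1 (exact permutation p = 0.00598, adjusted p = 0.225) and Ipo4 (exact permutation p = 0.0354, adjusted p = 0.418). With values floored at 7, where 104 probe sets were called, Ipo5 passed (exact permutation, adjusted p = 0.0235). Ipo8 was called there too, but its 5 SCE all lie under 7, so that flooring sets their spread to 0.

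The biological proportion is the share of the variance among cells that the SCE do not show. It was 0.5 or above for 10 of the 27 members and for 41.5% of all probe sets, with medians of 0.28 and 0.35. It was estimated over the same probe sets, each detected in a single cell, so the same tilt applies. Among the 8 members detected in at least 4 cells it was 0.968 for Ipo4, 0.888 for Ipo5, 0.826 for Ran, 0.812 for Ranbp1 and 0.578 for Kpnb1, and lower for Nup50 (0.332), Kpna3 (0.159) and Xpo6 (0.00). For Ran the high share goes with a small variance in both kinds of array, and its spread did not differ by the permutation test (exact p = 0.119). By role, 6 of the 9 import receptors reached 0.5, as did 2 of the 4 genes of the Ran cycle, 1 of the 4 exportins and 1 of the 5 nucleoporins that were detected in a cell, Nup93, at 2.10 to 9.41 in the cells and 4.36 to 6.11 in the SCE.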

How the data were processed

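Murine marrow cells were measured on 35 arrays. The deposited intensities are linear values that the authors scaled to a trimmed mean of about 250 on every array; they are not the log2 values of the procedure the methods describe, and how they were made is not given in the sources used here. The number of arrays limits the precision. The members and gene lists were chosen with earlier results of these data known. The 66 control probe sets were left out. Ten-cell values were floored at 128 (log2 of 7), the 2 arrays of a sample were averaged, and 6823 probe sets with some ten-cell array over the floor were tested with limma 3.58.1 (R 4.3.3) across the 3 populations, SP being the mean of LSP and USP, with Benjamini-Hochberg adjustment. Means over arrays, used to choose probe sets, were taken with the same floor. Single cells and SCE were tested with limma over 4659 probe sets detected on at least 1 of the 17 arrays. Spread and biological proportion (maximum likelihood) were taken over the 4215 detected in at least 1 single cell. Levels centred on the group median entered the spread test, with medians recomputed for each labelling. Marrow came from a single mouse per experiment, and which samples shared a mouse is not given, so p-values measure the spread between these samples. Genes named were Ran, Rangap1, Ranbp1, Kpnb1, Kpna2, Cse1l, Xpo1 and Nxt1, members past a test, the 5 farthest from 0 in each comparison, those detected in every cell or nowhere, and the extremes of the biological proportion; other members were named after their values were seen. Scripts were tested on simulated data. Alternatives were other floors, filters and detection levels, quantile normalization, arrays with positive values alone, other fits, other probe sets and leaving out samples.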

Additional observations from a re-analysis of the deposited data

Results flagged for a closer look

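In 4 of the 34 members 1 of the 5 SCE lay far from the others by Dixon's ratio (the gap to its neighbour over the whole range), which was 0.76 for Cse1l, 0.78 for Xpo7 and 0.812 for Ranbp9, each low in SCE C, and 0.724 for Nup85, high in SCE D; the critical value for 5 is 0.71. Chance alone marks about 1 in 20 groups if values are normally distributed. The share over all probe sets is not given here, so the 4 members are not read as an excess. The values in SCE C were 2.41 for Cse1l, 3.23 for Xpo7 and 3.60 for Ranbp9, against at least 7.27, 6.60 and 8.65 in the other SCE, and Nup85 stood at 11.02 in SCE D against 6.57 or less. All those SCE C values are far under the detection level of 9.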

How the results depend on the processing

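Of the 30 members tested, the 1 higher in SP became 0 with a floor of log2 8 or no filter, 3 among arrays with positive values alone (1241 of all 6823 probe sets, against 193) or by the unadjusted t-test (520 of all), 2 over every probe set of the genes, and 0 to 2 without 1 sample. The 0 lower became 4 by the unadjusted t-test (601 of all), 1 with the 18 arrays fitted singly or with a replicate block of the array number (Nup62), and 0 to 1 without 1 sample. The cause was not tested. Between LSP and USP, 1 was called among arrays with positive values alone (1253 of all, against 7) and 1 by the unadjusted t-test (185 of all), and 0 without any 1 sample. With positive values alone the spread comes from the 3 CD8 samples, which are all at the floor for Xpot, the member called in both comparisons. Tnpo3 turned to -0.36 there and ranged from -0.15 (without USP replicate N) to 1.91 (without USP replicate Z) when 1 sample was left out. Members past the spread test numbered 2 with a floor of log2 7, where Ipo5 and Ipo8 passed (all SCE of Ipo8 are then at the floor), and over all probe sets the 22 calls of that test became 0 without any 1 SCE. With 1 SCE fewer there are fewer ways to label the arrays, so the smallest p that test can give is larger. No conclusion is drawn from the drop to 0. Members detected in no single cell were 4 at a detection level of 8 and 17 at 10. A single SCE left out moved the members at a biological proportion of 0.5 or above between 10 and 12. The array numbers did not pair the samples: the difference of array 1 from array 2 correlated between samples at -0.18 to 0.25, and with the replicate block Tnpo1 kept an adjusted p of 0.00751 (limma). Other counts stayed within 1.5 times. The small number of arrays and the floor of 7 limit what low members can show.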
